A study of Homo sapiens with 8 samples.

Results

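The change in guide abundance after 7 days of Cas13d induction was measured in A375, an established human melanoma line. It is the earliest of 3 time points of a dropout screen, and it rests on 4 of the 8 samples and on 93658 of the 280974 deposited fold changes. All samples were one monoclonal TetO-RfxCas13d line, in which doxycycline induces an RNA-cutting CRISPR nuclease, infected with a lentiviral pool of guide RNAs. The Day 0 cells were untreated, and the Day 7, Day 14 and Day 21 cells had received 1 ug/ml doxycycline, with 2 replicates of each. Since the line is a single clone, its own Cas13d level and its growth are part of every value. The pool held 46829 guides, of which 963 were non-targeting and the others lay on 6735 exon-exon junctions of 1250 genes. A gene's value here is the mean over its guides of the log2 fold change against the Day 0 library of the same replicate, minus the mean of the non-targeting guides of that library. At least 3 guides were required, which 1223 genes had. The 123 genes with exactly 3 guides had means between −0.87 and 0.62, and the 20 genes with 2 guides, left out, had means between −1.14 and 0.67. Each of another 7 genes had 1 guide, and the lowest of these was RPL23, at −3.85 in replicate 1 and −2.60 in replicate 2.

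A Cas13d guide directs the nuclease to a messenger RNA and leaves the gene itself intact. The protein made before induction stays in the cell until it decays or is diluted by division, so a guide against a needed transcript is lost from the pool only after the protein has run down and growth has slowed. Ribosomal proteins are made in step with growth, and large and small subunits are both needed for every round of translation. Other processes that dividing cells need include splicing, protein breakdown by the proteasome, DNA replication and chromosome segregation.

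Read depth was not stated. Up to a constant for its library, each fold change was the log2 of 2 whole numbers divided by each other, and the implied median number per guide was 92 at Day 0 and 119 at Day 7 in replicate 1, and 125 and 139 in replicate 2. These are lower bounds on the count plus any pseudocount. They correspond to a median counting error of 0.202 and 0.182 (log2) per guide, while the SD over non-targeting guides was 0.457 in replicate 1 and 0.548 in replicate 2. The labels name no molecular identifiers, so these errors cover counting only. They also do not say whether the replicates were separate infections, so all p-values measure only the spread between 2 samples that may be technical. Of 87 genes looked up by symbol, 85 were found in RefSeq (GRCh38.p14), and the 392 targeted junctions of these 85 lay within the boundaries of their own gene.

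At Day 7 few genes passed the test. At an adjusted p under 0.05 (limma, Benjamini-Hochberg over all 1223 genes), 35 genes were lower than the non-targeting guides, or 2.86%, and 1 was higher. Of these 35 genes, 22 encode ribosomal proteins and 13 do not. In both replicates 17 genes (1.39%) lay below −1, and 382 genes (31.2%) lay below 0. A value of −1 is a geometric mean over guides at 50% of the Day 0 level, relative to non-targeting guides. The median gene stood at 0.03 in replicate 1 and −0.07 in replicate 2. At an unadjusted p under 0.05, 139 genes were lower.

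The size of the loss differed between the replicates in one direction. Replicate 2 was the lower of the pair in 35 of the 35 called genes, with a median ratio of 1.78 between the replicate values and a range from 1.08 to 2.98. In replicate 1, 17 of the called genes lay below −1, and in replicate 2, 31 did. Across all genes replicate 2 was lower in 910 of 1223. Counted from replicate 2 alone, 48 genes lay below −1, and from replicate 1 alone, 18. The number of calls depended on the fit: limma called 0 genes lower when Day 14 and Day 21 shared the fit (104 genes had an unadjusted p under 0.05), 1 gene when control guides served as the reference, and 0 when guides under an implied 50 at Day 0 were left out. The calls given below are those of Day 7 fitted alone. With only 2 replicates, an exact sign-flip test of a single gene cannot go below a p of 0.5.

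The 27 genes tested for proteins of the large ribosomal subunit had the lowest median of all gene lists, −0.92 in replicate 1 and −1.67 in replicate 2. Of them 19 fell (70.4%, against 2.86% over all genes tested) and 0 rose, and 24 lay below 0 in both replicates. They held 12 of the 17 genes below −1 in both replicates.

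RPL13A was the lowest gene of the screen at Day 7. This protein lies on the outside of the large subunit. Its value was −3.14 in replicate 1 and −4.41 in replicate 2, a mean of −3.78 ± 0.90 (SD, n = 2; adjusted p = 0.0012, limma). As a geometric mean over guides, this is 7.30% of the Day 0 level relative to non-targeting guides, and not the share of the pool left. Single RPL13A guides stood between 0.632% and 117% in replicate 1 and between 0.349% and 137% in replicate 2. All of its 8 guides target the junction at chr19:49490576-49490778 (hg38), and 7 of them lay below 0 in both replicates. Its lowest guide had implied numbers of 123 at Day 0 and 1 at Day 7 in replicate 1, and of 239 and 1 in replicate 2, where 1 is the lowest number possible. Its highest guide stood at 0.23 and 0.46, so guides on the same junction ran from the lowest possible number to values above 0.

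RPL34, another protein of the large subunit, stood at −1.91 and −3.02 in replicates 1 and 2 (mean −2.46 ± 0.78, SD, n = 2; adjusted p = 0.0039). RPLP2 belongs to the acidic stalk that recruits translation factors, and its values were −1.82 and −3.01 (adjusted p = 0.0055). Another stalk protein, RPLP0, had −0.87 and −1.68 (adjusted p = 0.016) and was named after its values were seen. Both stalk genes lay below 0 in both replicates, with RPLP2 below −1 in both.

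RPL27A had −1.35 in replicate 1 and −3.00 in replicate 2 (adjusted p = 0.016), and 8 of its 8 guides lay below 0 in both. RPL24 showed the closest replicates among the lowest 12 genes, at −1.93 and −2.13 (mean −2.03 ± 0.14, SD, n = 2; adjusted p = 0.00074). RPL7 had −1.28 and −2.59 (adjusted p = 0.013), with 16 of 16 guides below 0 in both replicates. These 3 genes were below −1 in each replicate, as were RPL11 and RPL15.

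RPL11, which also binds the p53 regulator MDM2 when ribosome assembly is disturbed, stood at −1.35 and −2.37 (adjusted p = 0.0091). RPL15 had −1.22 and −2.17 (adjusted p = 0.010). The other 9 called genes of the large subunit, RPL7A, RPL28, RPL4, RPL35A, RPL27, RPL3, RPL38, RPL6 and RPL13, had means from −1.69 (RPL7A) to −0.76 (RPL13).

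Not every gene of the large subunit was lost. Of the 8 that were not called, RPL19, RPL8, RPL14 and RPL18 had means between −0.67 and −0.44. The remaining 4, RPL5, RPL30, RPL35 and RPL9, lay between −0.08 and 0.11. RPL9 was the highest of the list, at 0.25 in replicate 1 and −0.02 in replicate 2.

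Small subunit proteins stood between this list and the rest. Their 16 genes had a median of −0.34 in replicate 1 and −0.72 in replicate 2. Of these, 3 fell (18.8%, against 2.86% over all genes tested), 15 lay below 0 in both replicates and 2 lay below −1 in both. At an unadjusted p under 0.05, 11 of the 16 were lower, against 23 of the 27 large subunit genes. The difference between the lists was not tested. In the other 20 lists the median over genes of the mean of both replicates lay between −0.31 and 0.07.

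RPS4X, the X-linked form of RPS4, had −1.13 and −2.10 (adjusted p = 0.012). RPS19, known from Diamond-Blackfan anaemia, had −0.67 and −1.66 (adjusted p = 0.039). RPS18 was the highest, at 0.07 and 0.14. RPS13 was the lowest of those not called, at −0.50 and −1.03 (adjusted p = 0.051).

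Outside the ribosome, 13 genes fell, among them a splicing factor, a proteasome subunit and a vesicle coat subunit. SF3B1 recognises the branch point as part of the U2 snRNP. It had −1.58 in replicate 1 and −3.33 in replicate 2 (mean −2.45 ± 1.24, SD, n = 2; adjusted p = 0.013), and 18 of its 20 guides lay below 0 in both. The 11 genes of the U2 snRNP and SF3 list had a median of −0.03 and −0.17. SF3B1 was the only gene called (9.09%, against 2.86% over all genes tested), and SF3B4 was the highest at 0.34 and −0.06. The mean of SF3B4 changed sign under another reference or summary.

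Among the 21 genes of the Sm core, U1, U5 and tri-snRNP, 1 fell (4.76%), near the 2.86% over all 1223 genes tested. It was SNRPF, a subunit of the Sm ring, at −0.82 and −1.67 (adjusted p = 0.018), while SNRNP25 was the highest at 0.13 and 0.11. The median of that list was −0.02 in replicate 1 and −0.26 in replicate 2. In both replicates 11 of its genes (52.4%) lay below 0, against 31.2% over all genes tested. At an unadjusted p under 0.05 (limma), 8 of the 21 were lower. SR and hnRNP proteins, which choose splice sites and package transcripts, had a median of −0.16 and −0.51 over 17 genes, and 2 of them fell (11.8%). SRSF7 had −0.73 and −1.86 (adjusted p = 0.038), and SRSF3, named after its values were seen, had −0.71 and −1.01 (adjusted p = 0.016). EIF4A3, the helicase of the exon junction complex, had −0.49 and −1.34 and was not called (adjusted p = 0.063). In the Prp19 and catalytic step list 0 of 16 genes were called by limma (4 at an unadjusted p under 0.05), and its lowest member was BUD31 at −0.47 and −0.30.

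PSMD1, a large scaffold subunit of the regulatory particle of the proteasome, stood at −1.17 and −2.21 (mean −1.69 ± 0.73, SD, n = 2; adjusted p = 0.012). Of its 83 guides, 63 lay below 0 in both replicates. No other of the 27 proteasome genes was called, so the called share was 3.70%, near the 2.86% over all genes tested. The median of the list was −0.07 and −0.18, and 17 genes (63.0%) lay below 0 in both replicates, against 31.2% over all genes tested. At an unadjusted p under 0.05 (limma), 4 of the 27 were lower. The highest member was the assembly chaperone PSMG1, at 0.17 and 0.07.

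RNA polymerase subunits had 2 called genes among 14 (14.3%, against 2.86% over all genes tested). POLR2E, a subunit common to the 3 nuclear polymerases, had −1.10 and −1.61 (adjusted p = 0.0062). POLR2I, a small subunit of RNA polymerase II named after its values were seen, had −0.55 and −0.75 (adjusted p = 0.038). The median of the list lay above 0 in both replicates, at 0.09 and 0.00. POLR3K was the highest, at 0.11 and 0.32.

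COPB2, a subunit of the COPI coat that returns vesicles from the Golgi to the endoplasmic reticulum, had −0.85 and −1.75 over 129 guides (adjusted p = 0.018). Another coat subunit, COPA, had −0.45 and −1.42 over 210 guides and was not called (adjusted p = 0.078). Of the 26 genes of the vesicle and secretory list, COPB2 alone was called (3.85%, near the 2.86% over all genes tested). The median of that list was 0.03 and −0.08. RAN, the small GTPase that drives nuclear transport, had −0.94 and −1.52 (adjusted p = 0.011), and it was the only called gene of 21 in its list (4.76%). At the other end of that list stood THOC3, at 0.26 and 0.05.

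CCND1 encodes cyclin D1, the partner of CDK4 and CDK6 at the start of the cell cycle. It was named after its values were seen, and it stood at −0.85 and −1.62 (adjusted p = 0.016). The deposited table types it as not essential under Cas13, as it does RPL27A and RPLP0, while 30 of the called genes were typed essential. How the type was assigned is not given, and it may rest on fold changes of this screen. SFPQ, a nuclear RNA-binding protein of the paraspeckle named after its values were seen, had −0.55 and −0.78 (adjusted p = 0.038).

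Of the 13 called genes outside the ribosome, SF3B1, PSMD1 and POLR2E lay below −1 in both replicates. Their median was −0.85 in replicate 1 and −1.62 in replicate 2.

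In most other lists the median gene lay near 0 at Day 7, but the share of genes below 0 in both replicates varied. Among the lists below it ran from 9.52% (mitochondrial ribosomal proteins) to 58.8% (chaperones), against 31.2% over all genes tested. Translation factors had 55.0% and the APC/C, cullin, SUMO and COP9 list 57.7%, while cohesin and condensin had 12.5%. Over all 1223 genes tested, 2.86% were called lower and 139 were lower at an unadjusted p under 0.05 (limma). The counts of the lists below are to be read beside these background counts. Ribosome biogenesis factors had 0 of 57 genes called by limma (3 lower at an unadjusted p under 0.05) and a median of 0.02 and −0.10. Their lowest member was NCL, the nucleolar protein nucleolin, at −0.21 and −0.81, and their highest was WDR55 at 0.29 and 0.13. Translation initiation, elongation and release factors had 0 of 20 called (6 unadjusted) and a median of −0.13 and −0.20. EIF5A, at 0.48 and −0.36, was the highest of them, and its mean changed sign under another setting. Aminoacyl-tRNA synthetases had 0 of 13 called (0 unadjusted), from IARS at −0.11 and −0.35 to HARS at 0.00 and 0.07.

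DNA replication genes had 0 of 33 called (4 unadjusted) and a median of 0.03 and −0.13. RRM1, the large subunit of ribonucleotide reductase, was lowest at −0.14 and −0.75, and RFC2 was highest at 0.28 and 0.10. Kinetochore, spindle and mitotic kinase genes had 0 of 36 called (1 unadjusted), from SPC25 at −0.16 and −0.46 to MAD2L1, a spindle checkpoint protein, at 0.38 and 0.26. Cohesin and condensin had 0 of 8 called (1 unadjusted), from RAD21 at −0.20 and −0.44 to STAG2, a non-essential control with 6 guides, at 0.48 and 0.35. The APC/C, cullin, SUMO and COP9 list had 0 of 26 called (5 unadjusted), from SUMO2 at −0.15 and −0.82 to CDC23 at 0.16 and 0.28.

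Chaperones had 0 of 17 called (5 unadjusted), with HSPD1, the mitochondrial chaperonin, at −0.47 and −1.32 and DNAJC11 at 0.12 and 0.02. Mediator, TFIID and general transcription factors had 0 of 19 called (1 unadjusted), from MED14 at −0.08 and −0.53 to MED4 at 0.23 and 0.26. RNA exosome, 3′ end and Integrator genes had 0 of 24 called (0 unadjusted), from EXOSC8 at −0.07 and −0.31 to NUDT21 at 0.18 and 0.05. Mitochondrial ribosomal proteins had 0 of 21 called (0 unadjusted), and 2 lay below 0 in both replicates. They ran from MRPL18 at −0.10 and −0.19 to MRPS21 at 0.08 and 0.22. Respiratory chain and ATP synthase genes had 0 of 6 called (1 unadjusted), with NDUFB10 at −0.25 and −0.38.

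The lowest genes that were not called were PA2G4 and STIP1, then COPA and EIF4A3. PA2G4, a growth-related protein found on ribosomes, had −0.69 and −1.99 (adjusted p = 0.051). STIP1, the co-chaperone that links HSP70 and HSP90, had −0.52 and −2.00 (adjusted p = 0.094). In both genes replicate 2 was far lower than replicate 1. At Day 14 STIP1 stood at −1.18 and −1.28 (Day 14 minus Day 7 0.03, adjusted p = 0.97).

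At the upper end, ATOX1 was the single gene called higher. It is a copper chaperone and served as a non-essential control with 3 guides, at 0.67 and 0.56 (mean 0.62 ± 0.07, SD, n = 2; adjusted p = 0.040). Singly, its 3 guides had an adjusted p between 0.56 and 0.90 (limma). With the median of the non-targeting guides as reference, or with the replicate block, 0 genes were called higher. HIVEP3 stood at 0.35 and 0.71 over 3 guides (adjusted p = 0.11), and LSM14A at 0.42 and 0.58 over 6 guides (adjusted p = 0.094). CMC1 stood at 1.08 and −0.11 over 3 guides (adjusted p = 0.51). Like ATOX1, these genes are non-essential controls. The replicates of CMC1 were on opposite sides of 0.

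Control genes set the background of the screen. Of 394 non-essential control genes, 2 fell (0.508%, against 2.86% over all genes tested), and 85 (21.6%) lay below 0 in both replicates. Among the genes typed essential 242 of 479 (50.5%) did so, and among those typed not essential 55 of 350 (15.7%). The 2 control genes that fell were CEP170 and MTHFD1L. CEP170, a centrosomal protein, had −0.89 in replicate 1 and −2.65 in replicate 2 over 6 guides (adjusted p = 0.0495). MTHFD1L, an enzyme of mitochondrial folate metabolism, had −0.76 and −0.82 over 5 guides (adjusted p = 0.016). The next lowest control gene was PSIP1, a chromatin-binding protein, at −0.36 and −1.38 over 3 guides (adjusted p = 0.11). At Day 21 the values were −3.33 and −4.25 for CEP170, −3.66 and −2.62 for MTHFD1L and −3.14 and −4.04 for PSIP1.

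Within the called genes the values differed widely between targeted junctions. The 35 genes had 100 targeted junctions. Of these, 43 lay below −1 in both replicates and 15 did not lie below 0 in both. In the 25 genes with more than 1 junction, the distance between the lowest and the highest junction mean had a median of 1.66 (log2), from 0.057 in SRSF3 to 4.57 in RPL34.

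RPL34 had 3 targeted junctions in 5′ to 3′ order. The junction at chr4:108622024-108622104, with 3 guides, stood at 0.00 and −0.02 in replicates 1 and 2. At chr4:108622204-108622514, with 8 guides, the values were −0.79 and −1.75. At chr4:108622618-108625127, also with 8 guides, they were −3.76 and −5.41. The gene mean thus averages a junction near 0 with a junction at a mean of −4.58.

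RPL11 had 2 junctions with 8 guides each. At chr1:23694791-23695797 the values were 0.21 and 0.09, and at chr1:23695908-23696343 they were −2.92 and −4.82. RPLP0, RPL27 and RPL6 showed the same kind of split. In RPL27, the junction at chr17:43000102-43002672 had −1.89 and −2.94 and the next had 0.03 and −0.27. In RPL6, they were −1.39 and −2.53 against −0.02 and −0.14. In RPLP0, they were −1.96 and −3.39 against 0.23 and 0.02.

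The lower junction was upstream in RPLP0, RPL27, RPL6 and CCND1 and downstream in RPL34 and RPL11. In CCND1 the deposited table marks both junctions as fully_unique. The one at chr11:69643991-69647993 had −1.38 and −2.80, and the one at chr11:69648142-69651117 had −0.01 and 0.27. CEP170 had 3 guides on each of 2 junctions, at −0.10 and −0.73 for chr1:243128300-243129359 and at −1.68 and −4.56 for chr1:243126738-243128248.

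In other genes every targeted junction lay below −1 in both replicates. This held for 3 of 3 junctions of SF3B1, whose means still differed by 2.04, with the lowest at −2.33 and −5.00. It held for 2 of 2 junctions of RPL7, whose means differed by 0.26. The genes with many junctions lay between: PSMD1 had 6 of 12 junctions below −1 in both replicates, from −2.93 and −5.50 (chr2:231083763-231085018) to 0.05 and 0.30 (3 guides). COPB2 had 6 of 17, the lowest at −2.71 and −3.35 and the highest at 0.34 and −0.03. The low junctions of both genes were spread along the transcript: in 5′ to 3′ order they were numbers 1, 2, 3, 5, 9 and 11 of PSMD1 and numbers 3, 4, 9, 12, 13 and 16 of COPB2.

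At the level of single guides, 1030 of the 46829 were lower at Day 7 (limma, adjusted p under 0.05), or 2.2%, and 4 were higher. Of the 963 non-targeting guides 0 were called, and 36 had an unadjusted p under 0.05. The called genes' 737 guides included 256 of the 1030, and the other guides called lower target genes that were not called or not tested. Of these 737 guides, 493 (66.9%) lay below 0 in both replicates and 259 (35.1%) at −1 or below in both. Over all 46829 guides, 1166 lay at −1 or below in both. The 35 genes were called from the means of these 737 guides. The counts therefore describe the called genes and are no separate support for the calls. With the replicate block the number of guides called lower was 87, and fitted together with the later days it was 0 (1111 at an unadjusted p under 0.05).

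At Day 7, 8 guides stood at the lowest possible implied number, 1, in the first replicate, and 88 in the other. Guides of the 35 called genes made up 6 of the 8 and 44 of the 88, a description, since the genes were called on these same values. In RPL34 the lowest guide had 116 at Day 0 and 1 at Day 7 in replicate 1, and 145 and 3 in replicate 2. The lowest guide of SF3B1 went from 105 to 10 and from 237 to 1. In RPLP2 the lowest guide went from 106 to 16 and from 132 to 1, and in RPL27A from 72 to 8 and from 147 to 1. The last 3 guides thus reached 1 in replicate 2 and not in replicate 1, and RPL34's did so in replicate 1.

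The highest guides of the same genes lay much nearer to 0. They stood at −0.09 and 0.17 in RPL34, −0.20 and 0.12 in RPLP2 and 0.08 and −0.78 in SF3B1. RPL27A differed, with its highest guide at −0.78 and −1.06.

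Guide classes as a whole had hardly separated by Day 7. The mean of the 27805 guides of genes typed essential lay −0.06 from the non-targeting mean in replicate 1 and −0.28 in replicate 2 (−0.17 ± 0.16, SD, n = 2), a difference close to the spread between the replicates. Guides of genes typed not essential lay at 0.05 and −0.05, and control guides at 0.06 and −0.02. All of these classes lay lower in replicate 2 than in replicate 1, and the essential class was the lowest in each replicate. The 499 guides of ribosomal protein genes within the essential class stood apart, at −0.87 and −1.50, and 136 of them (27.3%) were called lower. Of the other 27306 guides of that class, 804 (2.94%) were. The share at −1 or below in both replicates was 28.3% for the ribosomal guides and 3.31% for the other essential ones. It was 0.685% for genes typed not essential, 0.502% for controls and 0.208% for non-targeting guides.

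Correlation between the replicates was highest for the genes typed essential, whose values also differed most between replicates. The SD between the replicate means was 0.157 for guides typed essential, 0.073 for those typed not essential and 0.057 for control guides. A higher r here therefore does not mean closer values. Across gene means, as a description, Pearson's r between the replicates was 0.904 over 479 genes typed essential, 0.651 over 350 typed not essential and 0.221 over 394 controls. Across single guides it was 0.459 for the essential class and 0.037 for non-targeting guides. Genes and guides of a library share its depth and its Day 0 reference, and they are not independent replicates.

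The position of a guide within a junction's set, numbered 1 to 8 in the table, showed no order. In the essential class the 8 positions had means between −0.08 and −0.03 in replicate 1 and between −0.31 and −0.25 in the other replicate. Junction categories were compared within genes typed not essential. The common minus fully_unique difference was 0.04 in each replicate over 66 genes. Common minus partial_unique was 0.03 and 0.07 over 84 genes, and partial_unique minus fully_unique was −0.03 and −0.19 over 46 genes. None of these differences reached 0.2, and genes lay on both sides of 0 in each.

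The deposited GeCKO gene score, named after a Cas9 knockout library, was related to the Day 7 gene mean only weakly. Pearson's r across 829 scored genes was 0.185 in replicate 1 and 0.186 in replicate 2, given as a description. All these scores lay between −2.03 and −0.85, and the control genes had no score. The r thus covers that range only and cannot tell how the score and Day 7 relate beyond it. The 208 genes with the lowest scores held 20 of the 33 called genes that have a score, and the other 621 held 13. Over all 829 scored genes the called share was 3.98%. Ribosomal protein genes had a median score of −1.31, against −1.11 for scored genes outside the ribosomal lists. Outside those lists r with the mean of both replicates was 0.141, against 0.191 over all scored genes. How the score was made was not stated.

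The later days were set beside Day 7 to see which losses were already complete. All fold changes of a replicate share its Day 0 library. Of the 1223 genes, 236 (19.3%) were lower at Day 14 than at Day 7 and 8 were higher. Against Day 21, 234 (19.1%) were lower and 11 were higher (limma, adjusted p under 0.05).

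The called genes continued to fall. All 35 were lower at Day 14 than at Day 7, by a median difference of −1.66 and from −3.45 (SRSF3) to −0.69 (CCND1), while the median over all genes was −0.18. At Day 21, 32 of the 35 were lower than at Day 7, and RPL11, RPS19 and RPL6 were not called. The Day 7 mean amounted to a median of 43.6% of the Day 21 mean on the log2 scale.

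RPL13A had gone farthest by Day 7, with 80.7% of its Day 21 value. It stood at −3.98 and −5.72 at Day 14 and −3.93 and −5.43 at Day 21. RPL11 had reached 68.7%, with −2.50 and −2.91 at Day 21. At the other end stood SRSF3 with 20.2%, which went from −0.71 and −1.01 at Day 7 to −4.14 and −4.49 at Day 14 and −4.36 and −4.15 at Day 21. SF3B1 lay in between with 50.9%, at −4.06 and −5.19 at Day 14 and −4.39 and −5.26 at Day 21. Guides at the lowest possible number cannot show any further loss, which limits these shares for genes with such guides.

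By list, large ribosomal subunit genes had a median of −1.28 at Day 7, then −2.69 (Day 14) and −2.84 (Day 21). The small subunit had −0.49, −1.74 and −2.23. SR and hnRNP proteins went from −0.31 to −1.30 and −1.63. DNA replication genes, near 0 at Day 7 with −0.04, stood at −0.37 and −0.61, and mitochondrial ribosomal proteins stood at −0.06 and −0.07.

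Some genes lay near 0 at Day 7 and low at Day 21. Among genes with a Day 7 mean between −0.25 and 0.25, the 6 lowest at Day 21 included SNRPC, AP2M1, ZDHHC7, RBPJ and DYNC1H1. They were picked for this pattern, so their values are a description. SNRPC, a protein of the U1 snRNP, had −0.02 and −0.27 at Day 7, −0.61 and −1.22 at Day 14 and −1.64 and −2.88 at Day 21. AP2M1, a subunit of the clathrin adaptor, went from −0.17 and −0.33 to −1.55 and −1.83 and then to −2.06 and −2.32.

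DYNC1H1, the heavy chain of cytoplasmic dynein, had −0.01 and −0.45 at Day 7 over 184 guides and −1.73 and −2.16 at Day 21. ZDHHC7, a palmitoyltransferase, and RBPJ, the transcription factor of Notch signalling, are non-essential control genes of the screen with 6 guides each. ZDHHC7 had −0.41 and −0.04 at Day 7 and −2.63 and −1.40 at Day 21, and RBPJ had −0.20 and 0.08, then −2.76 and −1.18. In both, the replicates at Day 21 differed by more than 1 log2 unit, and the sign of the Day 7 mean changed under another setting.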

How the data were processed

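Guide cassettes were amplified from genomic DNA by 2-step PCR, per the labels' protocols. Reads were processed with cutadapt 3.5 and Bowtie 1.1.2 and the build was hg38, per the submitters' processing notes. The authors deposited one table of log2 fold changes per guide, day and replicate, with Day 0 as the reference; their counter, pseudocount, scaling and filters are not given in the sources used here. The table also holds a GeCKO gene score, deposited without a stated derivation.

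Groups and replicate numbers came from the labels. Because the values are fold changes, no count test was run. The 2 replicate values of each gene (at least 3 guides) or guide, minus the non-targeting mean, were tested against 0 with limma 3.58.1 in R 4.3.3 (lmFit, eBayes, Benjamini-Hochberg), after the script was tested on simulated data. Day differences came from a fit of the replicate differences between days. Replicates are paired by number, since each fold change uses the Day 0 library of its own number. Implied numbers are the smallest whole numbers that give the ratios of all 3 days, at a tolerance of 1e-10 with denominators up to 2000.

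Genes were named by rule: the 12 lowest called genes, the 4 highest and the 4 lowest not called, the lowest and highest of each list, the 6 lowest at Day 21 among those within 0.25 of 0 at Day 7, the 3 lowest controls, and the extreme guides of the 6 lowest genes. Other names were chosen after their values were seen, and a few genes are not reported here. The members and lists were chosen with earlier results of these data known. Alternatives were other references, guide summaries, guide minimums, a depth filter, robust moderation, all days fitted together, a replicate block and leaving out a replicate.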

Additional observations from a re-analysis of the deposited data

Results flagged for a closer look

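The difference between days was tested within the same replicates, and these results stood out because the effect at a later day differed from that at Day 7 (limma, adjusted p under 0.05). Of 1223 genes, 236 were lower at Day 14 than at Day 7 and 234 were lower at Day 21. Among the lowest genes at Day 7, the Day 14 minus Day 7 difference (log2) was −1.07 for RPL13A, −1.66 for RPL34, −2.18 for SF3B1, −2.42 for RPLP2 and −2.82 for RPL27A. It was −2.06 for RPL24, −3.25 for RPL7, −0.83 for RPL11, −1.56 for CEP170 and −0.97 for RPL15. The genes near 0 at Day 7 were picked for a low Day 21 value, so their differences are a description and not a finding of the test. Among them, the difference was −1.45 for AP2M1, −1.24 for DYNC1H1 and −0.77 for SNRPC. For ZDHHC7 and RBPJ, the control genes among them, it was −1.29 and −0.54. Day 7 and Day 14 share the Day 0 library, which cancels in this difference.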

How the results depend on the processing

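The 35 genes called lower became 37 with the median of the non-targeting guides as reference, 48 with no reference, 31 with any number of guides and 37 with the replicate block. The count was 58 with at least 6 guides, 18 with the median over guides, 3 with robust moderation, 1 with the median of all guides or the mean of control guides as reference, and 0 when guides under an implied 50 at Day 0 were left out (149 genes at an unadjusted p under 0.05, both directions). With all days fitted together, 0 genes were called by limma (104 unadjusted); without a Day 7 replicate, 0 in both cases (100 and 18 unadjusted), a fit chosen after seeing the data, in which the lone sample is assumed to vary like the others. The 1030 guides became 87 with the replicate block (2496 unadjusted) and 0 with all days fitted together (1111 unadjusted), also without either Day 7 replicate (775 and 205 unadjusted). The 17 genes below −1 in both replicates became 10 with the median over guides, and 18 to 48 when a replicate was left out. The number of genes called higher was 1 with no reference and 1 with at least 6 guides, a limit that excludes ATOX1. It was 0 with the other references, the median over guides, any number of guides and the depth filter. Robust moderation, the replicate block and all days fitted together also gave 0. The cause of these shifts was not tested. Of 68 named genes, 20 of the 20 called kept their sign under every alternative and 11 of the 48 others did not. Depth limits guides at an implied number of 1, whose further loss cannot be measured.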

Other observations

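Some genes of growth signalling, the cell cycle and p53 control were looked up after the values had been seen. BRAF, the kinase of the MAPK pathway, stood at −0.36 in replicate 1 and −1.34 in replicate 2 at Day 7 over 78 guides and was not called (limma, adjusted p = 0.11). At Day 21 it stood at −2.57 and −2.55. MAP2K1, which encodes the kinase MEK1, had −0.18 and −0.38 at Day 7 and −1.11 and −1.40 at Day 21. MDM2, the ubiquitin ligase of p53, had −0.25 and −0.60, then −1.22 and −1.45. MTOR, with 366 guides, had 0.01 and −0.30 at Day 7 and −0.92 and −1.09 at Day 21. CDK2 had −0.10 and 0.08 at Day 7 and 0.38 and 0.24 at Day 21.

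Junctions of BRAF differed as those of the called genes did. Of its 11 targeted junctions, 2 lay below −1 in both replicates at Day 7. One of these, at chr7:140778075-140781575, stood at −1.08 and −3.60 over 7 guides, and the junction at chr7:140834872-140850110 stood at 0.20 and −0.05 over 8 guides.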
